A study of Mus musculus with 12 samples.

Results

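The forkhead (Fox) genes encode transcription factors that share a winged-helix DNA-binding domain. They were taken here as the protein-coding RefSeq genes of the mouse whose symbol is Fox with a subfamily letter from a to s and a number, without Foxn1. This gave 43 genes in 19 subfamilies, of 21631 protein-coding genes on chromosomes 1 to 19 and X. Accessible chromatin had been profiled by ATAC-seq, in which a transposase inserts into open DNA, in mTEChi, the mature class of medullary thymic epithelial cells with high MHC class II, sorted from thymi of C57BL/6 mice aged 4 to 7 weeks. The 12 libraries formed 6 groups of 2. They were Aire -/- mice and their Aire +/+ wild types, Aire +/C313Y heterozygotes and their Aire +/+ wild types, and Aire +/C442G heterozygotes and their Aire +/+ wild types. Both heterozygotes carry 1 unchanged Aire allele. The labels do not name the deleted part of Aire in the knockout, nor say whether the 2 libraries of a group came from separate animals, so differences between them may be technical. A gene was called open in a library when a peak of that library's list lay within 1 kb of either annotated gene end. A gene open in both mutant libraries but in neither wild type of their set counts as gained, and one open in both wild types but neither mutant as lost.

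Forkhead factors read lineage and signal at once. FOXA factors open compacted chromatin in endoderm, FOXO factors leave the nucleus when PI3K and AKT signal, FOXM1 drives mitotic genes, FOXJ1 builds motile cilia and FOXP3 defines regulatory T cells. In the medulla of the thymus, AIRE-expressing cells and their descendants can take on features of peripheral cell types, and FOXA, FOXI and FOXJ1 factors mark secretory, ionocyte-like and ciliated forms of such mimetic cells.

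The lists held 34047 to 122326 peaks on these chromosomes. The shortest belonged to the wild types of the knockout set (34715 and 34047, against 85826 and 94976 in the knockout), and no read depth was given. Aire itself had a peak near a gene end in 12 of 12 libraries, which does not check the knockout label. Of 13 mTEC markers, 7 were open in all libraries, among them Epcam, Relb, Tnfrsf11a and the MHC class II genes H2-Aa and H2-Ab1. Ciita was open in none and Cd80 in 1. Several markers of other cell types were open in part of the libraries. Of T cell markers Cd4 was open in 9, Cd3d in 7 and Thy1 in 6. Col1a1 was open in 11 and Pdgfra and Rgs5 in 9 each (fibroblast and mural), Cd79b in 7 (B cell) and Kdr in 6 (endothelial). Of 11 T cell markers none was open in all libraries and Cd8a, Lck, Rag1 and Rag2 in none. The same was 0 in all and 2 in none of 5 endothelial markers (Pecam1 and Cdh5 in none), 0 and 2 of 5 B cell markers (among them Ms4a1 in none), 0 and 1 of 7 fibroblast and mural markers (Col3a1 in none), 2 and 0 of 9 dendritic and macrophage markers (Xcr1 and Flt3 in all), and 2 and 1 of 5 cortical epithelial markers (Prss16 in none).

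Promoter sequences show the range of base composition within the family. RefSeq entries were at hand for 27 of the 43 genes (GRCm38.p6, which shares coordinates with mm10), and the 250 bases before the start site are printed for 4 of them, with each CpG in capitals. Foxd1 (chr13:98353995-98354244, plus strand) and Foxi3 (chr6:70956356-70956605, plus strand) are the genes with an entry that were called gained or lost and whose peaks lay on this stretch. Foxo1 (chr3:52268087-52268336, plus strand), open in all 12 libraries, and Foxi1 (chr11:34208090-34208339, minus strand), open in none, were added for comparison after their values had been seen.
Foxd1: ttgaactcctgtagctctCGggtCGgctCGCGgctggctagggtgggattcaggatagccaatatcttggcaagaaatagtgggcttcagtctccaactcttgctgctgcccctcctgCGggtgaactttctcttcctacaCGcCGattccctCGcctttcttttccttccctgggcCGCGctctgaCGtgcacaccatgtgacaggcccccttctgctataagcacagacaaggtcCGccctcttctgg
Foxi3: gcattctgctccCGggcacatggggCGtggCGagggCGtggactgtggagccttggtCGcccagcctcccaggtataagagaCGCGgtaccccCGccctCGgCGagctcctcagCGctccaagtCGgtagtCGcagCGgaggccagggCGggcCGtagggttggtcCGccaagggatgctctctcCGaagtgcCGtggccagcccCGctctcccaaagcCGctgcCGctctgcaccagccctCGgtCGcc
Foxo1: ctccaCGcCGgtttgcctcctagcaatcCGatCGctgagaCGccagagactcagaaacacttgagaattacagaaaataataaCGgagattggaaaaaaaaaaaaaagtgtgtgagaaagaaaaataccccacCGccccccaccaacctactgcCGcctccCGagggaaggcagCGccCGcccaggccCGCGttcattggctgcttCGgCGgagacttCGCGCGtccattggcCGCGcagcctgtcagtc
Foxi1: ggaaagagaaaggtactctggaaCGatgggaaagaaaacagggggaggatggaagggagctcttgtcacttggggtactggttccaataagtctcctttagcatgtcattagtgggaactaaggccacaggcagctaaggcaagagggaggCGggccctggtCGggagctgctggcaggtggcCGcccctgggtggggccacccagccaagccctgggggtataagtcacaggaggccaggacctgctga
The stretch held 12 CpG in Foxd1, 24 in Foxi3, 20 in Foxo1 and 4 in Foxi1. A peak lay on it in 8, 10, 12 and 0 libraries. The CCAAT box (CCAAT, both strands) occurred 1 time in Foxd1, 3 times in Foxo1 and 1 time in Foxi1. It occurred in 36.8% of the same stretch in 17274 genes, and in 12 of the 27 forkhead genes. The GC box (GGGCGG, both strands) occurred in all 4, and in 43.2% of the 17274 genes and 19 of the 27. The forkhead motif TGTTTAC (both strands) was in none of the 4, in 1 of the 27 and in 2.59% of the 17274, and TATAAA (both strands) in none of the 4, 2 of the 27 and 12.5% of the 17274. None of these motifs is contained in another, and a match is a description of sequence only.

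Of the 43 forkhead genes 19 were open in all 12 libraries, 20 in 1 to 11 and 4 in none. Over all protein-coding genes, 46.6% were open in all, 27.6% in 1 to 11 and 25.8% in none. The family thus had a share of always-open genes near that of all genes (44.2%), and its variable share, 46.5%, was the larger of these 2 variable shares. No test was made of this difference, because the family was chosen with earlier results of these data known.

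The 19 genes open throughout covered all 4 FOXO genes, all 3 FOXJ genes, 2 FOXP genes and 1 gene each of other subfamilies. Foxo1, Foxo3, Foxo4 and Foxo6, the transcription factors restrained by AKT, had a peak in every library. At Foxo6 the peaks were of nearly constant width, from 378 to 502 bp. At Foxo1 the bases covered within 1 kb of a gene end were 195 and 217 bp in the wild types of the knockout set and 661 and 735 bp in the knockout. They were 513 and 370 bp in C313Y heterozygotes against 228 and 174 bp, and 854 and 955 bp in C442G heterozygotes against 809 and 1006 bp. The groups did not overlap in the first 2 contrasts and did in the third. Of all genes 37.6% and 18.6% likewise had more covered bases in both mutants in the first 2 contrasts.

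Foxj1, which controls motile cilia, and its relatives Foxj2 and Foxj3 were open in 12 of 12. The widest Foxj1 peak was 549 and 168 bp in the knockout, 503 and 83 bp in its wild types, 621 and 769 bp in C313Y heterozygotes against 636 and 700 bp, and 589 and 595 bp in C442G heterozygotes against 570 and 690 bp. The low value of 83 bp came from wild-type replicate 2 of the knockout set, where the peak also ranked lowest, above 10.7% of that list's other peaks. In KO replicate 2 the peaks were split, and together covered 551 bp. Foxj2 had 2 regions called in all 12, the one ending 15 bp before the start site and the other 436 bp after it.

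Foxm1, the mitotic regulator, Foxk2, a partner of SIN3 and BAP1, Foxp1 and Foxp4, which act as repressors, and Foxn2 were also open in all 12. So were several genes best known from single organs. Among them were Foxa3 of endoderm and liver, Foxc1 of eye and mesenchyme, Foxd2, Foxh1, the SMAD partner of Nodal signalling, Foxq1 and Foxs1. Each of the 19 had at least 1 region, merged from overlapping peaks, that was called in all 12 libraries. Of the 19, 13 had no region that also lay within 1 kb of another protein-coding gene. The Foxh1 region also lay near Ppp1r16a and the Foxm1 regions near Rhno1 and Tex52. At Foxa3 chr7:19023370-19023725 and chr7:19024136-19024490 also lay near Sympk, while chr7:19011980-19012679, called in all 12, lay near no other gene. A Foxo4 region called in all 12 (chrX:101260630-101261199) also lay near Gm614, and another (chrX:101254018-101254673) did not. The Foxj1 region called in all 12 (chr11:116335156-116335960) also lay near Rnf157, and that of Foxj3 (chr4:119538958-119540510) near Frg2f1. The other Foxj1 regions were called in 5 and 8 libraries, and neither in the knockout set's wild types. Peaks in these shared regions cannot be assigned to one gene.

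Among the genes open throughout, the strongest peaks ranked highest in Foxh1, Foxo3 and Foxd2, and lowest in Foxc1, Foxp1 and Foxo4. The rank is the share of the library's other peaks that are weaker by −log10 p (by width in the C313Y set, whose lists give positions only). Its median over libraries was 94.8% for Foxh1, 94.5% for Foxo3, 94.0% for Foxd2, 73.4% for Foxc1, 73.9% for Foxp1 and 74.1% for Foxo4. The order depended on the libraries ranked by width. Over the 8 libraries ranked by p, Foxa3 (97.5%) came after Foxh1 (98.3%) and above Foxo3 (95.3%) and Foxd2 (94.0%). The lowest were then Foxo4 (65.3%), Foxp1 (71.7%) and Foxm1 (73.2%), and Foxc1 stood at 79.0%. The authors' fold enrichment at Foxh1 was 7.21 to 13.1 over the 8 libraries that give one.

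**Figure D1:**
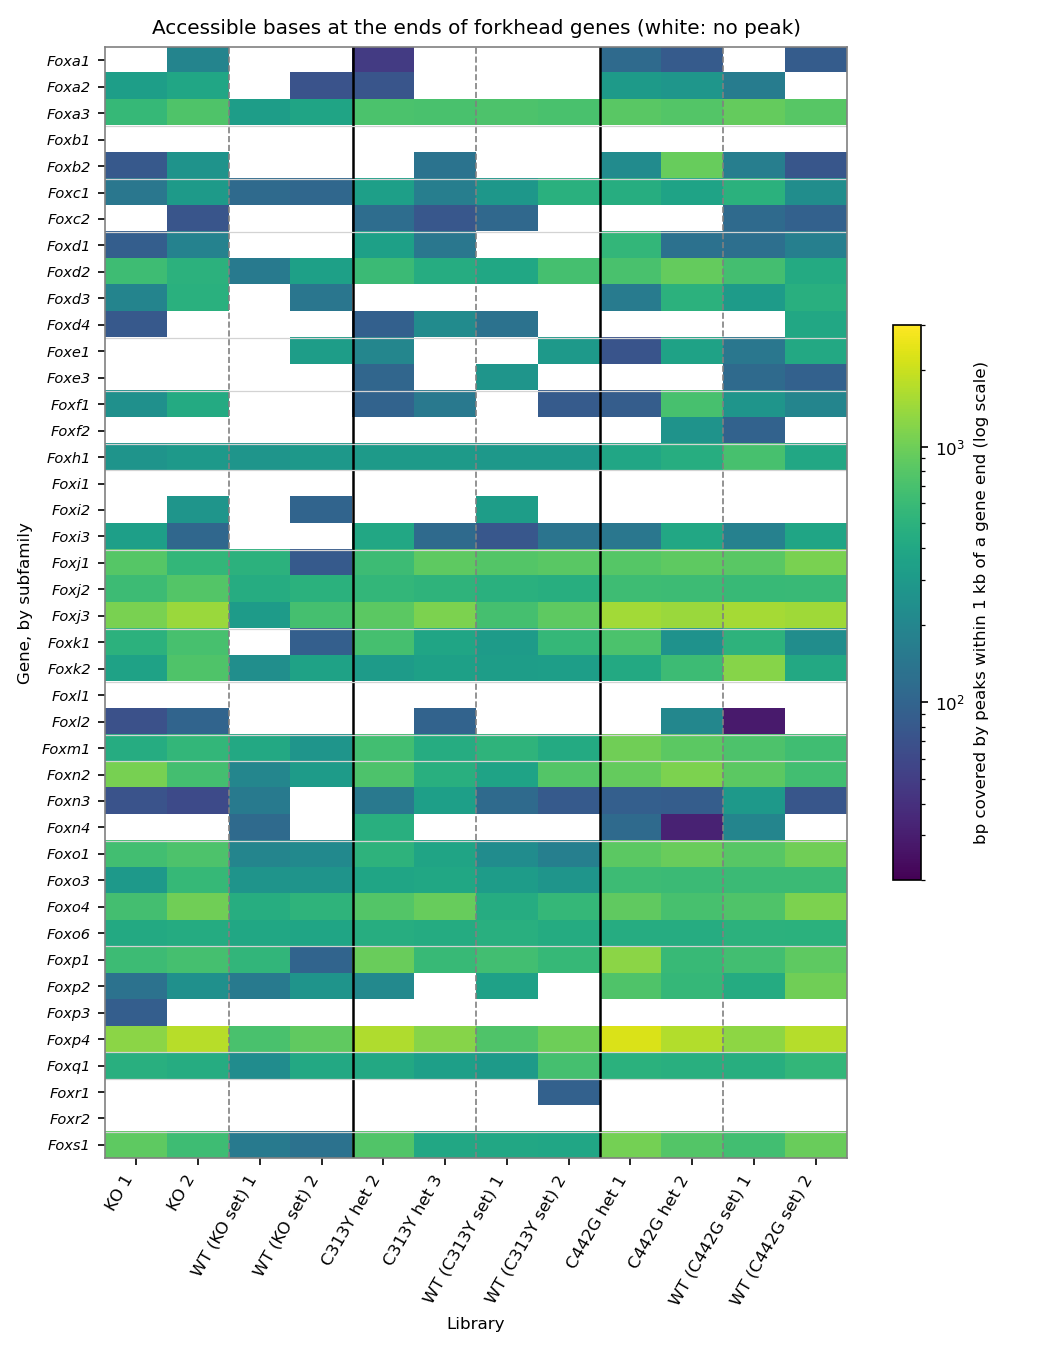
Base pairs covered by peaks within 1 kb of a gene end (colour, log scale; white means no peak) for the forkhead genes (rows, by subfamily; 1 gene open in all libraries is not shown) in 12 libraries (columns; solid lines part the 3 sets, dashed lines mutants from wild types). Rows without white are genes open in all libraries, and 4 rows are white throughout.

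At the median over genes, the 20 genes open in some libraries only had weaker and narrower peaks than the 19. Their median rank ran from 2.11% to 62.7%, with a median over genes of 37.9%, against 73.4% to 94.8% and a median of 85.2% for the genes open throughout, so the ranges did not overlap. The median over genes of the widest peak was 141.5 bp against 410 bp, and of the authors' fold 3.88 against 6.53. The widths of single genes overlapped, at 90 to 429 bp against 239 to 1018.5 bp. These values describe the called peaks, and a gene open in few lists has few values behind its median. The number of open libraries and the rank come from the same called peaks, so they are not independent. Ranks over all genes were not computed for comparison.

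**Figure D2:**
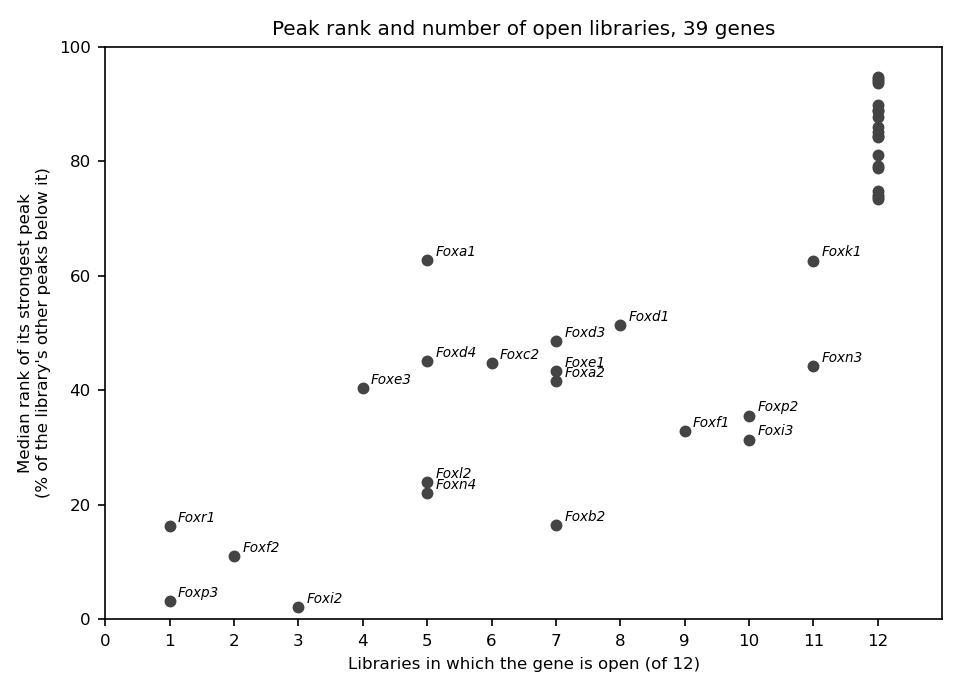
Median rank of each gene's strongest peak (vertical axis, percent of the library's other peaks below it) against the number of libraries in which the gene was open (horizontal axis), 1 point for each of 39 genes with a peak. All genes open in fewer than 12 libraries lie at or below 62.7%, and the 19 open in all 12 lie at or above 73.4%.

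Foxa2, which specifies endoderm, was open in 7 libraries. Its widest peak was 335 and 386 bp in the knockout, 72 bp in wild-type replicate 2 of that set and absent from replicate 1. It was 75 bp in 1 C313Y heterozygote and absent from the other and from both wild types there. In the C442G set it was 307 and 278 bp in heterozygotes and 163 bp in 1 of the 2 wild types. All 7 libraries used 1 region inside the gene (chr2:148046093-148046648).

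Foxa1, its close relative, was open in 5 libraries by the rule and in 12 of 12 within 1 kb of the start site that the promoter entry gives. A region inside the gene (chr12:57546586-57547142) was called in all 12 libraries. In the 7 libraries counted as closed the nearest peak lay 1018 to 1224 bp from a gene end, just outside the window. C313Y heterozygote replicate 2 was counted as open through a peak 953 bp from the end, just inside it. The other 4 open libraries, KO replicate 2, both C442G heterozygotes and C442G wild-type replicate 2, had a separate narrow peak beyond the gene (chr12:57548497-57548610), 468 to 503 bp from its end.

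Other variable genes were the neural crest gene Foxd3, open in 7 libraries, the thyroid gene Foxe1 in 7, Foxd4 in 5, Foxn4 of retina and spinal cord in 5, Foxf2 of mesenchyme in 2 and Foxi2 in 3. Foxd3 was closed in all 4 libraries of the C313Y set and open in all 4 of the C442G set, and in the knockout set it was open in both mutants and 1 of the 2 wild types. Foxi2 was open in KO replicate 2, in wild-type replicate 2 of that set and in wild-type replicate 1 of the C313Y set, with the first 2 peaks ranking above only 2.11% and 1.29% of their lists. Foxk1 and Foxn3 were open in 11, Foxp2 in 10. Both Foxk1 and Foxn3 had regions inside the gene that were called in all 12, at 13610 bp from the nearer end for Foxk1 (chr5:142447912-142448405) and at 49393 bp for Foxn3 (chr12:99239474-99240064).

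Foxp3, the gene of regulatory T cells, was open in 1 library, KO replicate 1, by a 90 bp peak that ranked above 3.19% of that list. A region 4861 bp beyond a gene end (chrX:7573747-7574815) was called in all 12. Foxr1 was open in 1 library of the C313Y wild types, with a peak of 95 bp.

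Foxb1, Foxi1, Foxl1 and Foxr2 were open in no library. Foxi1, a master regulator of ionocytes, had its nearest peak 4931 to 54742 bp from a gene end, and no peak touched the gene. At Foxb1 the nearest peak was 22707 to 228409 bp away. The nearest peak to Foxl1 lay 1892 to 14129 bp away and under 2500 bp in 6 libraries, those of the C313Y set and 1 of each C442G group. At Foxr2 it lay 6808 to 6911 bp away in all 12, in 1 shared region (chrX:153139669-153140461). Absence of a peak means that none was called at the depth of that list.

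Neighbouring forkhead genes differed from each other. Foxq1, Foxf2 and Foxc1 lie on chromosome 13 between 31558170 and 31810635. The outer 2 were open in all 12 libraries and Foxf2 between them in 2. On chromosome 8, Foxf1, Foxc2 and Foxl1 lie between 121084386 and 121130644 and were open in 9, 6 and 0 libraries. On chromosome 4, Foxd2 was open in 12 and its neighbour Foxe3 in 4.

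Promoter CpG content differed with the number of open libraries. The CpG ratio (observed over expected from C and G, over 250 bases before to 50 after the start site) had a median of 0.89 in the 10 genes with an entry that were open in all 12, 0.62 in 15 variable genes and 0.19 in 2 open in none. Over all 17274 genes with an entry the medians were 0.80, 0.43 and 0.17. Of 18 forkhead genes with a ratio of at least 0.6, 9 were open in all 12, against 76.0% of the 8460 such genes. Foxf2 (0.79), Foxa1 (0.93) and Foxd3 (0.79) had a high ratio and were open in 2, 5 and 7. Openness was counted at the gene ends, which can lie away from the start site of the ratio. Within 1 kb of that start site a peak lay in 2, 12 and 7 libraries for these genes. For Foxn3 (0.29), open in 11, it lay there in 0. Foxp1, with 3 start sites whose ratios were 1.11, 0.28 and 0.50, entered with 0.50. It was open in all 12 at a gene end. A peak lay within 1 kb of the start site with 0.50 in only 1 library. For the start sites with 1.11 and 0.28 it lay there in 6 and 8. For each gene with several start sites the outermost one was used, which also gave Foxa2 0.55, where its other start sites had 0.68 and 0.77. This is a description without a test.

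**Figure D3:**
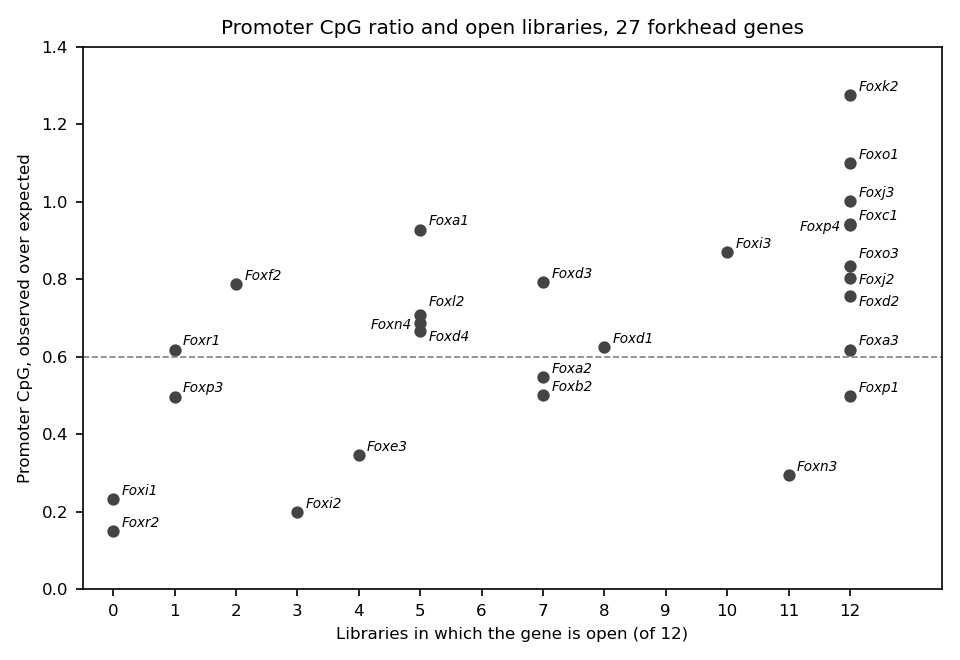
CpG observed over expected in the promoter (vertical axis; the dashed line marks 0.6) against the number of libraries in which the gene was open (horizontal axis), 1 point for each of the 27 forkhead genes with a promoter entry. Foxi1 and Foxr2, open in none, lie at 0.23 and 0.15, while 9 of the 10 genes open in all 12 lie above the line.

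The number of open forkhead genes was lowest, at 22, in a wild type of the knockout set. It was 31 and 32 in the knockout and 22 and 25 in its wild types. C313Y heterozygotes had 32 and 28 against 27 and 25 in their wild types, and C442G heterozygotes 31 and 33 against 34 and 32. Group means were 31.5 ± 0.71 against 23.5 ± 2.12 (SD, n = 2 each), 30 ± 2.83 against 26 ± 1.41, and 32 ± 1.41 against 33 ± 1.41. The share of all protein-coding genes open was 62.2% against 51.6%, 61.1% against 60.1% and 65.7% against 64.0% on average. With every list of a set reduced to the length of its shortest, the knockout had 21 and 20 open forkhead genes and its wild types 21 and 25. Of all genes 49.4% and 49.5% were then open in the knockout, against 51.3% and 51.6%. Replicates of one group disagreed on 2 to 8 of the 43 genes, the most in both C313Y groups (8 each) and the fewest in C442G heterozygotes (2). These disagreements took in 4.65% to 18.6% of forkhead genes and 4.86% to 8.19% of all genes.

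**Figure D4:**
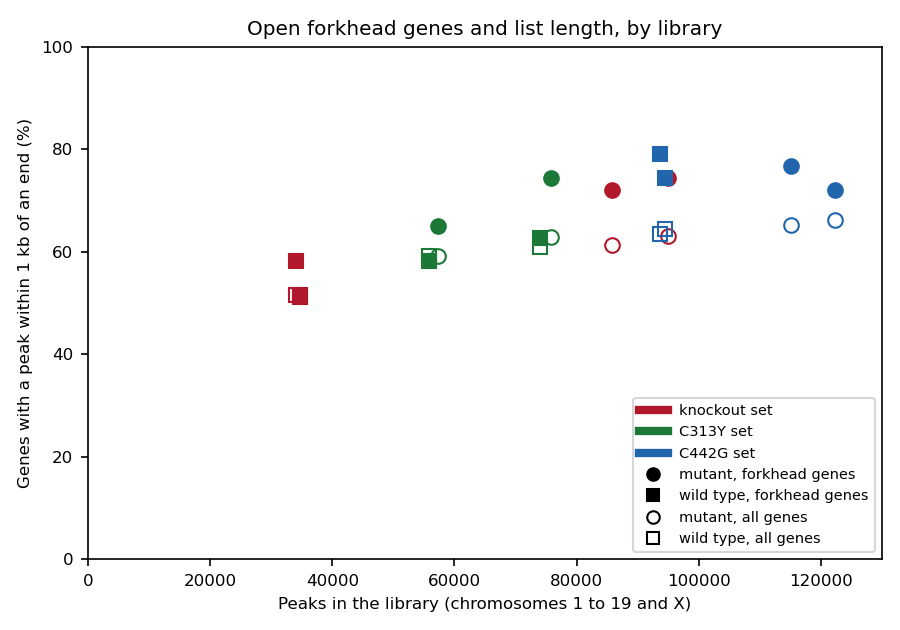
Percent of genes with a peak within 1 kb of an end (vertical axis) against the number of peaks in the list (horizontal axis) for each of 12 libraries, with filled symbols for the 43 forkhead genes and open symbols for all protein-coding genes. The 2 wild types of the knockout set, with the shortest lists, lie at 51.2% and 58.1% of forkhead genes, and the C442G wild types at 79.1% and 74.4%.

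In Aire-deficient cells 5 forkhead genes were gained and 0 were lost. The gained genes were Foxb2, Foxd1 of kidney stroma, Foxf1 of lung and gut mesenchyme, Foxi3 of ectodermal appendages and Foxl2 of the ovary. They were 11.6% of the family, while 5.21% of all protein-coding genes were gained and 0.0277% lost. Among genes with neither wild type open the count was 5 of 16, against 11.8% of 9597, and among those with both open 0 of 20 were lost, against 0.0582%. The knockout lists were longer than those of their wild types. With lists of equal length (the strongest peaks of each) 0 were gained (0.800% of all genes) and Foxp2 was lost (1.57% of all genes). With all 6 wild types as controls 0 were gained, and only 0.245% of all genes. Each of the 5 was open in both wild types of the C442G set except Foxl2, which was open in 1.

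Foxd1 was the one member gained in more than 1 contrast. Its widest peak was 89 and 184 bp in the knockout and 343 and 145 bp in C313Y heterozygotes, and all 4 of their wild types had none within the window. In C313Y wild-type replicate 1 a peak inside the gene lay 1126 bp from its end, just outside. C442G heterozygotes had 554 and 129 bp and their wild types 125 and 100 bp. With a window of 2500 bp Foxd1 was gained in neither contrast. All 8 open libraries shared one region across the start site (chr13:98354122-98354738). In the 6 libraries with deposited values the authors' fold was 3.80 to 5.17 and −log10 q 2.34 to 4.76, the highest in C442G wild-type replicate 1. Over the 3 contrasts 6 of 6 mutant and 2 of 6 wild-type libraries were open (exact two-sided permutation p = 0.0556, adjusted p = 1 by Benjamini-Hochberg over 21631 genes).

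Foxi3 was open in 10 libraries, all but the 2 wild types of the knockout set. Its widest peak was 338 and 107 bp in the knockout, 330 and 112 bp in C313Y heterozygotes, 78 and 138 bp in their wild types, 146 and 402 bp in C442G heterozygotes, and 100 and 378 bp in their wild types. The peak of KO replicate 1 had a −log10 q of 1.10 and ranked above 2.17% of its list. The call thus rested on 2 libraries without a peak.

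Foxf1 was open in 9 libraries. Its widest peak was 249 and 426 bp in the knockout with none in its wild types, 98 and 152 bp in C313Y heterozygotes with none and 84 bp in their wild types, and 87 and 692 bp in C442G heterozygotes against 274 and 197 bp. The exact two-sided permutation p over the 3 contrasts was 0.167 (6 of 6 mutants against 3 of 6 wild types open, adjusted p = 1 over 21631 genes). Of these 9 libraries 8 shared a region outside the gene (chr8:121083613-121084304).

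At Foxb2 the widest peak was 81 and 167 bp in the knockout with none in its wild types. It was 136 bp in C313Y heterozygote replicate 3, with none in the other 3 libraries of that set, and 141 and 942 bp in C442G heterozygotes against 170 and 76 bp in their wild types. The knockout peaks ranked above 14.6% and 16.4% of their lists, with folds of 3.25 and 3.30. With a window of 500 bp Foxb2 was not called gained.

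Foxl2, the factor of ovarian granulosa cells, had 69 and 101 bp in the knockout and none in its wild types. It was 99 bp in 1 of 2 C313Y heterozygotes, with none in either wild type, and 110 bp in 1 of 2 C442G heterozygotes and 178 bp in 1 of 2 of their wild types. These peaks did not all share a place, since the last lay near the other gene end.

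**Figure D5:**
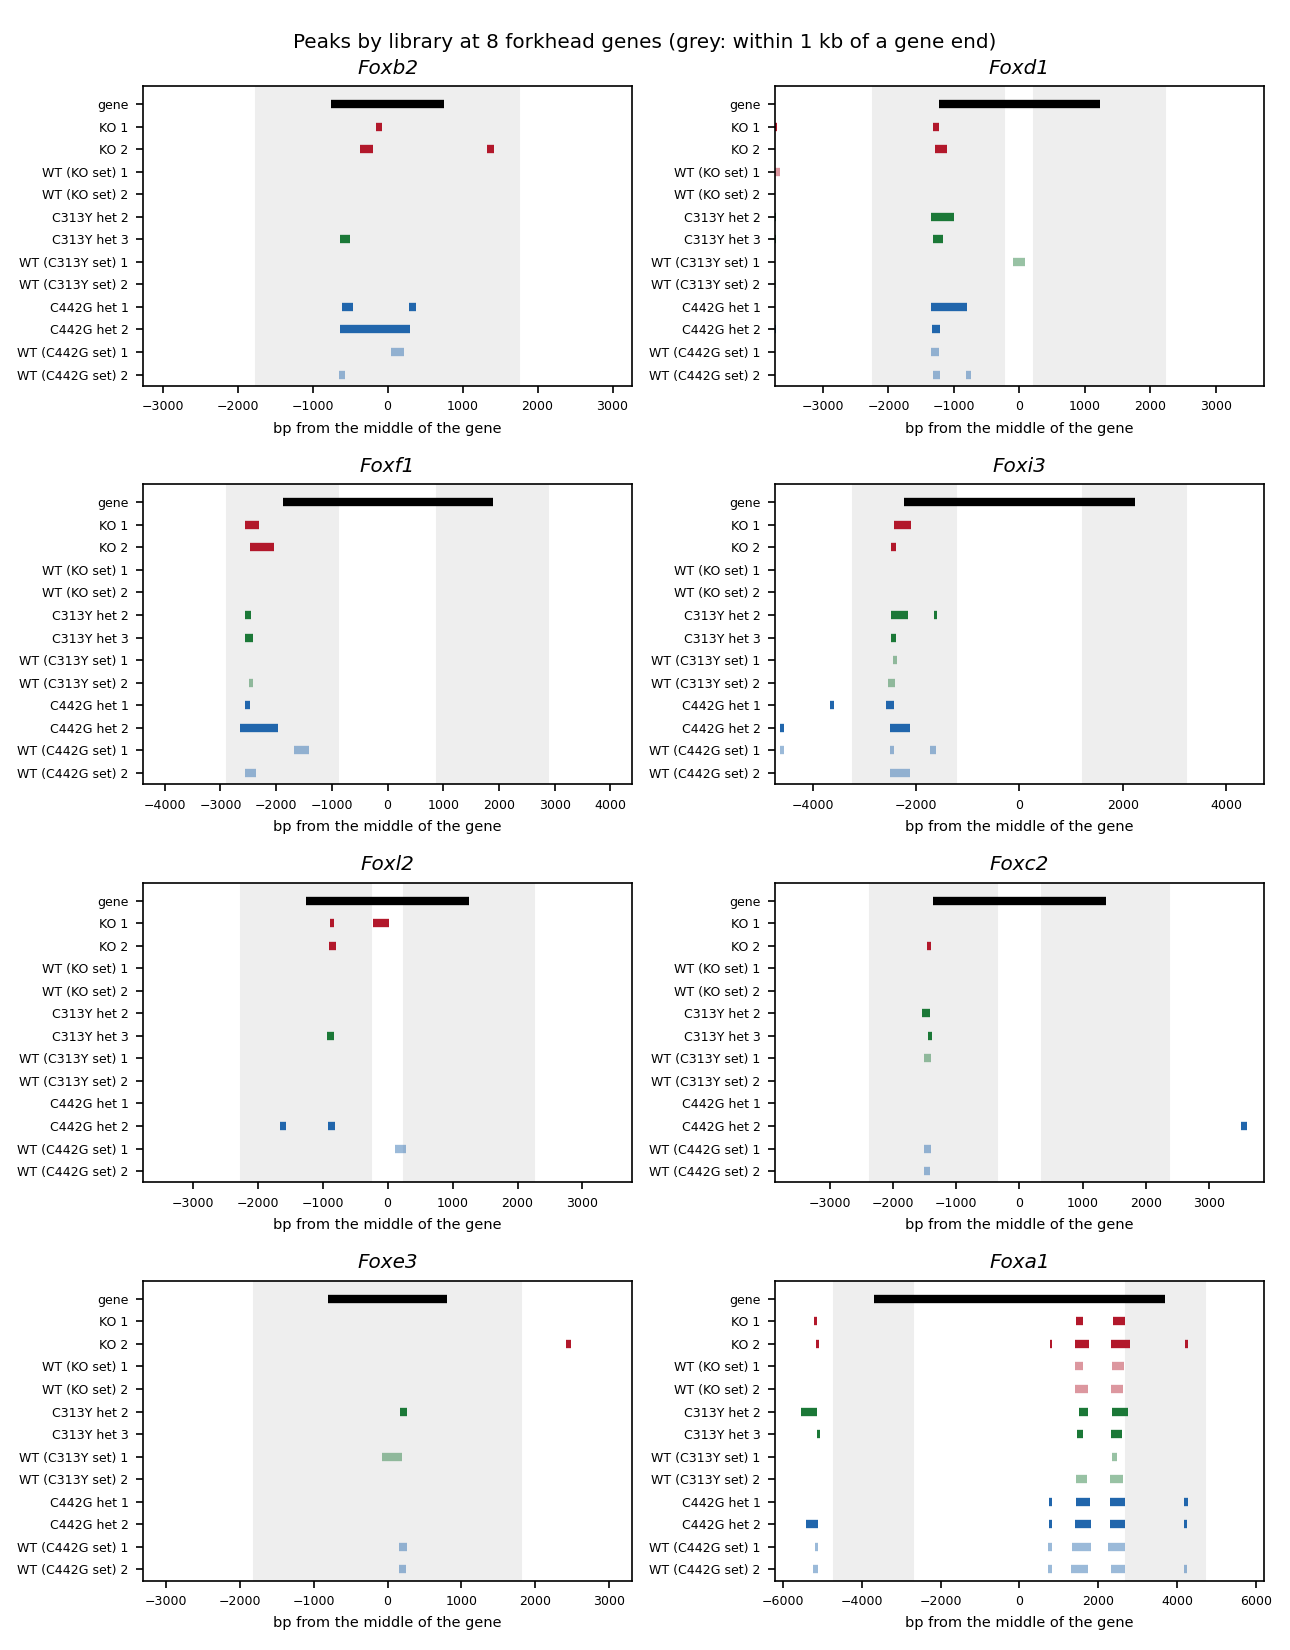
Peaks (bars) in each of 12 libraries (rows) by distance in bp from the middle of the gene (horizontal axis) at the 7 forkhead genes called gained or lost and at Foxa1; the black bar is the gene, grey marks the 1 kb windows, and paler bars are wild types. At Foxd1 the 8 open libraries share 1 place, at Foxc2 the 6 open libraries share 1 place, and at Foxa1 all 12 have a peak inside the gene near the edge of the window.

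Markers of other cell types were open more often in the knockout lists than in those of their wild types, and their part in the forkhead gains was not tested. Open T cell markers numbered 4 and 3 against 1 and 1 of 11, dendritic and macrophage markers 6 and 5 against 3 and 2 of 9, and fibroblast and mural markers 3 and 4 against 2 and 1 of 7. B cell markers numbered 0 and 2 against 0 and 0 of 5, cortical epithelial markers 4 and 4 against 3 and 2 of 5, and endothelial markers 0 in all 4 libraries. The mTEC markers too were open more often, 9 and 10 against 8 and 7 of 13. So were all protein-coding genes, 62.2% against 51.6% on average, and the knockout lists were longer.

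C313Y heterozygotes gained 1 forkhead gene, Foxd1, and lost 0, where 0.846% of all genes were gained and 0.37% lost. Of genes with no wild type open it gained 1 of 13 (2.36% over all genes), and of those with both open it lost 0 of 22 (0.661%). The count of gained genes rose to between 2 and 4 when 1 library was left out and the call rested on 3. Leaving a library out cannot lower this count, and 1.47% to 2.75% of all genes were then gained. C442G heterozygotes gained 0 and lost 2, Foxc2 and Foxe3, where 0.897% of all genes were gained and 0.291% lost. Of genes open in both wild types, 2 of 30 forkhead genes and 0.476% of 13225 genes were lost, and of those open in neither, 0 of 7 and 2.7% were gained.

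Foxc2, which patterns lymphatic vessels and mesenchyme, was open in 6 libraries through narrow peaks at one place (chr8:121115999-121116157) outside the gene. The widest was 113 and 95 bp in the C442G wild types and absent from both heterozygotes. It was 119 and 78 bp in C313Y heterozygotes, 109 bp in 1 of their 2 wild types, and 75 bp in 1 of 2 knockout libraries. The folds in the C442G wild types were 3.97 and 4.84. In the 6 libraries without this peak the nearest one lay 2141 to 2615 bp from a gene end. A region 2566 bp from the gene (chr8:121113359-121113605) was called in all 12. It lay outside a window of 2500 bp, with which Foxc2 was open in 7 libraries and not called lost. Over the 3 contrasts 3 of 6 mutants and 3 of 6 wild types were open.

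Foxe3, which acts in the lens, was open in 4 libraries, both C442G wild types (112 and 94 bp), 1 C313Y heterozygote (105 bp) and 1 C313Y wild type (275 bp). Both C442G heterozygotes and all 4 libraries of the knockout set had none. With a window of 500 bp Foxe3 was open in 0 libraries. The exact two-sided permutation p over the 3 contrasts was 0.500 (1 of 6 mutants against 3 of 6 wild types, adjusted p = 1 over 21631 genes). With all 6 wild types as controls, 0 forkhead genes were lost in C442G heterozygotes (0.00462% of all genes).

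In this design the test of a single gene within a contrast cannot go below p = 0.333, and over the 3 contrasts not below 0.00926 (exact permutation of labels within each, 216 assignments). On open or closed, 0 of the 43 genes and 17 of all genes (0.0786%) had an exact permutation p under 0.05, and 0 of 21631 passed after adjustment.

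The bases covered by peaks within 1 kb of a gene end gave a graded measure. In the knockout 24 of 43 forkhead genes had more covered bases in both mutant libraries than in both wild types, against 37.6% of all genes, and 0 had fewer (0.971% of all genes). In C313Y heterozygotes 9 had more (18.6% of all genes) and 1 had fewer (4.29%). In C442G heterozygotes 6 had more (15% of all genes) and 4 had fewer (8.37%), among them Foxc2, Foxe3 and Foxo6. The median difference, mutant minus wild type, was 136.5 bp for forkhead genes and 42.5 bp for all genes in the knockout, 24 and 0 bp for C313Y, and 0 and 0 bp for C442G. Mutant lists were longer on average in each contrast (90401 peaks against 34381 in the knockout, 66555 against 64918.5 in C313Y and 118680 against 94058.5 in C442G). The part of list length in covered bases was not tested.

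Over the 3 contrasts 10 of 43 forkhead genes had an exact permutation p under 0.05 on covered bases, against 9.79% of all genes, and none passed adjustment over 21631 genes (smallest adjusted p = 0.354). Foxj2 reached the smallest p the design allows, 0.00926 (exact permutation, adjusted p = 0.354 over 21631 genes). It had 616 and 790 bp in the knockout against 449 and 490 bp, 550 and 524 bp in C313Y heterozygotes against 484 and 465 bp, and 636 and 617 bp in C442G heterozygotes against 584 and 598 bp, so the groups did not overlap in any contrast. Taken singly, 37.6%, 18.6% and 15% of all genes had more covered bases in both mutants in these contrasts. The share of all genes that did so in all 3 was not computed. Foxa2, Foxb2, Foxd1, Foxm1, Foxo1, Foxo3, Foxp4 and Foxs1 were also among the 10, each higher in mutants. Of all genes 58.7% were higher in mutants on this measure and 15.4% lower. Of the 43 forkhead genes 27 were higher and 12 lower.

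Genes that act with forkhead factors were described from lists drawn up for this purpose, without a test. Over all genes 46.6% were open in all libraries, 27.6% were variable and 5.21% were gained in the knockout, and gains of 1 or 2 genes in a list are given as values only. Of 19 regulators of FOXO factors 12 were open in all libraries, among them Akt1, Akt2 and Sirt1. In the knockout Sgk3 and Ywhaz were gained. Of 21 FOXO target genes 14 were open in all, and Il7r and Pck1 were gained in the knockout. Of 15 genes of FOXM1 and the cell cycle 14 were open in all and none was gained or lost in any contrast, and of 11 partners of FOXP and FOXK 10 were open in all with none gained or lost.

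Other lists held genes of single lineages. Of 12 ionocyte genes, which act downstream of FOXI1 or beside it, 1 was open in all libraries, the anion exchanger gene Slc26a4, and 11 were variable. Kcnma1 was gained in the knockout, Bsnd in C313Y and Stap1 in C442G. Of 16 endoderm factors that act with FOXA, 2 were open in all, among them Onecut1, and 11 were variable. Gata6 was among those gained in the knockout and Cdx2 was gained in C313Y, and Gata4, Sox17 and Spdef were open in none. Of 20 genes of multiciliated cells 11 were open in all, among them Ccno, Rfx2 and Dnah9. Tekt1 was gained in the knockout and Dnaic2 in C442G. Of 9 regulatory T cell genes 2 were open in all, Ikzf2 and Ikzf4, and Ctla4 and Icos were gained in the knockout. No member of these 8 lists was lost in any contrast.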

How the data were processed

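ATAC-seq peak lists of 12 mTEChi libraries were analysed. Per the submitters' processing notes, cutadapt, Bowtie2, Picard and MACS2 were used with mm10. Their versions, order and any read shifting are not stated there. The authors deposited 8 lists in which each peak has a score, a fold enrichment (a ratio) and 2 −log10 values, for p and for q, and 4 lists (C313Y set) with positions only. Each library has its own list. Libraries were grouped by title, and each mutant's wild types were matched by the shared form of the titles. Peaks on chromosomes 1 to 19 and X were set against RefSeq genes of GRCm38.p6 with windows of 1 kb around both gene ends. Single genes were tested by exact two-sided permutation within contrasts, with Benjamini-Hochberg adjustment over 21631 genes (Python 3.11.15, numpy 2.4.6, pandas 2.3.3). The calling was tested on simulated lists, each made by random removal of peaks from a single wild-type list of the contrast. These were of similar length, so the simulation did not cover lists of unequal length. No counts or depth were given, so no interval was computed. The forkhead genes, the gene lists and the rule for named genes (members gained or lost and Foxa1 and Foxa2 by library, the 3 highest and 3 lowest ranks among genes open in all, others by number of open libraries) were chosen with earlier results of these data known. Same-numbered libraries share only a number. Values of some genes are not reported here.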

Additional observations from a re-analysis of the deposited data

How the results depend on the processing

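Alternatives were run on the gained and lost forkhead genes of each contrast and on those open in all or no libraries (5 and 0 in the knockout, 1 and 0 in C313Y, 0 and 2 in C442G, 19 and 4 open in all and none). With a gene end window of 500 bp, 6 were gained in the knockout (4.54% of all genes), with Foxa2 and Foxa3 in and Foxb2 out. Foxe3 was then open in no library and so not lost in C442G, and 16 were open in all (43.2% of all genes). With one of 2500 bp, 0 were gained in C313Y (0.851% of all genes) and 1 was lost in C442G (0.282%). With a −log10 q of at least 3, 2 other genes (Foxk1 and Foxo4) were gained in the knockout (6.76% of all genes). In C442G 1 (Foxa2) was then gained (1.34% of all genes), and 12 were open in all (35.1%). The 2 lost in C442G were then Foxc2 and Foxn3 (0.208% of all genes were lost). The C313Y lists hold no q and were kept whole. With lists of equal length 0 were gained (0.800% of all genes) and 1 (Foxp2) was lost (1.57%) in the knockout. Within 1 kb of the start site, for 27 genes, 2 were gained in C313Y, 1 was lost in C442G and 10 were open in all. Of all genes with a start site the shares were 0.672%, 0.295% and 49.4%. With the gene body included, an alternative chosen after seeing the data, 1 (Foxn4) was lost in the knockout and 0 were gained in C313Y. Of all genes 0.0277% and 0.578% were so called. With all 6 wild types as controls 0 were gained in the knockout, 0 in C313Y, and 0 were lost in C442G. The shares of all genes were 0.245%, 0.102% and 0.00462%. The causes were not tested.

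Leaving out each replicate in turn gave 6 to 8 gained and 0 to 1 lost in the knockout. It gave 2 to 4 and 0 to 1 in C313Y, and 0 to 2 and 2 to 3 in C442G. There were 19 to 20 open in all and 4 to 5 in none. Leaving a library out cannot lower any of these counts. Of all genes 7.25% to 8.56% were then gained in the knockout, 1.47% to 2.75% in C313Y and 1.75% to 2.49% in C442G. The shares lost were 0.0693% to 0.453%, 0.619% to 2.43% and 0.675% to 1.13%. Without wild-type replicate 2 of the knockout set 8 were gained there. Without C313Y heterozygote replicate 2 or 3, 3 and 4 were gained, and without wild-type replicate 1 or 2 of that set, 3 and 2. Without C442G wild-type replicate 1 or 2, 2 and 1 were gained. Same-numbered libraries were compared as a replicate block in the knockout and C442G sets, which gave the same 5, 0, 0 and 2 genes by construction. In the C313Y set only 1 number is shared and no block could be made. With the replicate block the permutation over contrasts gave 0 genes past adjustment and 9 at an unadjusted p under 0.05, against 0 and 17 without it. The calls changed with the window and with the length of the lists, and depth is unknown.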
